A study of Mus musculus with 18 samples.

Results

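Wild type (WT) syndecan-3+ cells isolated 48 h post-injury were compared with WT syndecan-3+ cells isolated 12 h post-injury, on 3 arrays each, which are 6 of the 18 arrays of the series. The members were taken from the array titles, and the comparison runs over all 45101 probe sets of an Affymetrix mouse genome array. Both groups came from female mice of the cross C57Bl/6 x DBA2, aged 3 to 6 months by the labels, without a transgene or deletion. Tibialis anterior muscle of both groups had been injected with 1.2% barium chloride, a salt that destroys muscle fibres and leaves the resident stem cells to repair them. By the labels, the groups differed in the time from injection to harvest. Nothing used here says whether both groups were sorted, amplified and scanned together. Cells were freed from minced muscle with collagenase and sorted by flow cytometry for syndecan-3 at the surface, and the labels name them satellite cells. RNA from 5000 cell equivalents per array went through 2 rounds of T7 linear amplification. Further groups are used for context: WT cells of the same cross from uninjured muscle (2 arrays used), and cells of female Sdc4-/- mice of the strain C57Bl/6, which lack syndecan-4, at 12 h and at 48 h after the same injury (3 arrays each). Genotype and strain differ together between WT and Sdc4-/- samples, so that effects of the one and of the other cannot be told apart. The labels do not say whether samples of a group came from different animals. The p-values come from 1 fit over 17 arrays of all 6 groups. They measure only the spread between samples within those groups, which may be technical.

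Satellite cells are the stem cells of skeletal muscle. They lie between the muscle fibre and its basement membrane, rest until an injury, and are marked by the transcription factor Pax7 and by the heparan sulphate proteoglycans syndecan-3 and syndecan-4. On activation they switch on the muscle regulatory factor MyoD, enter the cell cycle and divide as myoblasts, which later fuse. Injured muscle also fills with blood-borne cells over the same days: neutrophils arrive early, and monocytes follow, become macrophages, take up cell debris and degrade it in lysosomes, and change their secreted factors as repair goes on.

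The defining markers of satellite cells were low at both times. Values are GCRMA log2 values, on which a step of 1 is 2-fold and values of about 2 to 3 lie near the background of the array. Pax7 read 2.79, 2.50 and 2.50 on the 12 h arrays and 2.45, 2.46 and 2.46 on the 48 h arrays. Its mean in cells from uninjured muscle was 4.87. Myod1, the gene of MyoD, read 2.37, 2.38 and 2.37 at 12 h and 2.35, 2.34 and 2.33 at 48 h, and Myf5, a related muscle regulatory factor, read 3.39, 3.85 and 3.61 and then 3.14, 3.29 and 3.57. None of these 3 genes was near the level of a well measured transcript on any of the 6 arrays. By contrast Csf1r, the receptor for the growth factor of the macrophage lineage, read 12.91, 12.43 and 12.74 at 48 h. The values at 48 h therefore go against a label of satellite cells alone, and the samples are called syndecan-3+ cells here. In such bulk samples fewer cells of a type and less RNA per cell cannot be told apart.

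The arrays of the 2 times differed as wholes. At 12 h between 2832 and 3982 probe sets lay above a log2 value of 5, and at 48 h between 5123 and 5564, with 7213 and 7620 on the uninjured WT arrays. The 18 hybridization control probe sets, which read spiked-in bacterial transcripts, averaged 13.54 to 14.30 at 12 h and 11.68 to 12.50 at 48 h. The 3′ probe set of Actb read 11.81, 3.98 and 8.37 on the 12 h arrays and 12.13 to 12.65 at 48 h, and the 5′ probe set of Gapdh 3.16 to 3.86 and 8.16 to 8.99. Over the 9962 probe sets whose level averaged 4 or more, pairs of 12 h arrays correlated at 0.54 to 0.68 and pairs of 48 h arrays at 0.81 to 0.88. Each 12 h array thus had fewer probe sets above 5 and brighter controls than each 48 h array. The part of these values in the difference of a single gene was not tested. With the mean of the hybridization controls as a covariate, 1301 probe sets were called higher and 250 lower, in place of the 2591 and 2986 given next.

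At 48 h 2591 probe sets were higher than at 12 h (5.74% of 45101) and 2986 were lower (6.62%) at a limma adjusted p under 0.05. Over gene symbols, each read by its brightest probe set, 1686 of 18194 were higher (9.27%) and 1074 were lower (5.90%), and the median difference over all gene symbols was -0.06. The median called rise was 3.38, and 595 genes rose by at least 4. The median called fall was -0.58, and 5 genes fell by 4 or more. Of the 1686 genes called higher, 1195 had a mean under 5 at 12 h and of at least 5 at 48 h, whereas 111 of the 1074 genes called lower reached a mean of 5 at 12 h at all. Of the 6279 gene symbols whose level averaged 4 or more on the 17 arrays, 1651 were called higher (26.3%) and 74 lower (1.18%), with a median difference of 0.81. The study asked for a 2-fold difference and for p no higher than 0.01 by analysis of variance. Read here with the unadjusted limma p, that threshold was passed by 3386 probe sets (7.51%), 2777 of them higher and 609 lower. The methods of the study also name corrections for multiple testing, which were not applied to this count.

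The count of falls rested on the choice of arrays and of scale. It was 4645 probe sets without 12 h replicate 1, 1335 without 48 h replicate 1 and 1689 without 48 h replicate 3, while rises stayed between 2164 and 2744 with each of the 6 arrays left out in turn. Rises made up 46.46% of all calls, but 74.62% once each array was shifted to a common 75th percentile. Their share was 64.72% with all 18 arrays fitted, 79.9% with only the 6 arrays compared in the fit and 83.88% with the hybridization controls as a covariate. Over gene symbols, the 1686 rises became 554 with only the 6 arrays compared in the fit. They became 875 with the covariate and 1188 after quantile normalization. Counts of list members in these fits, given below, are to be read against these totals.

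**Figure D1:**
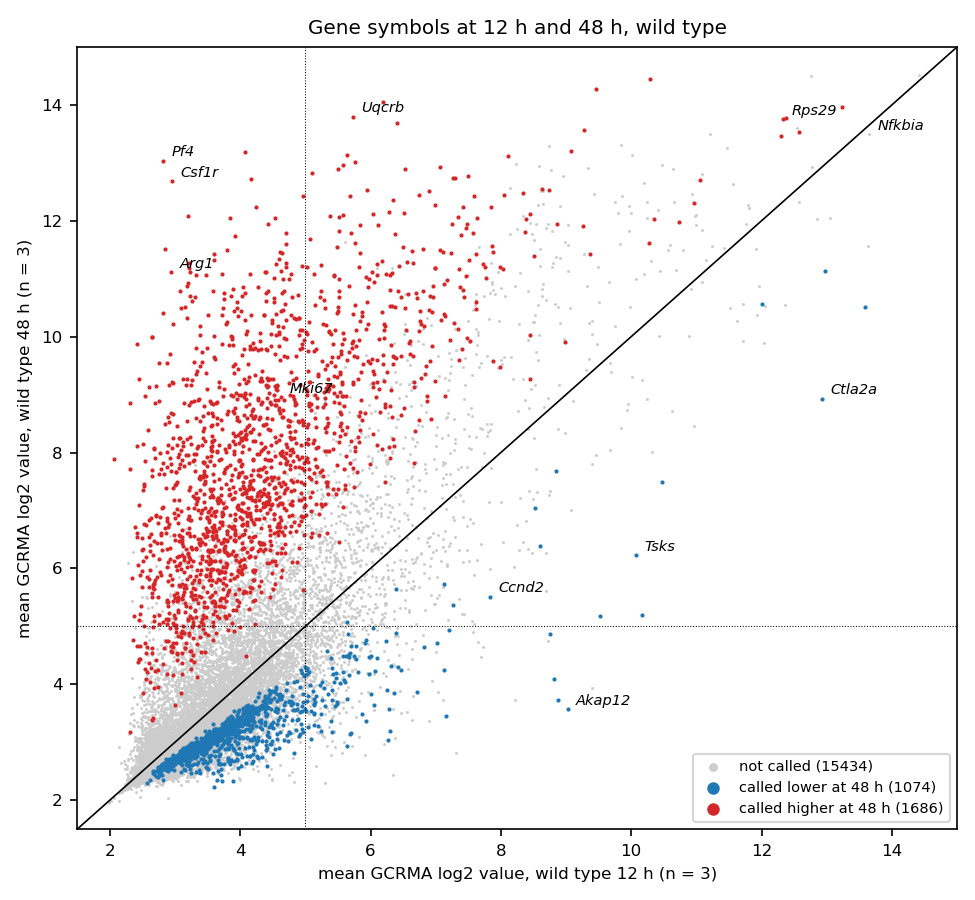
Mean GCRMA log2 value of each of 18194 gene symbols on the 3 WT arrays at 12 h (x axis) and at 48 h (y axis). Red points are the 1686 genes called higher at 48 h, blue points the 1074 called lower and grey points those not called, dotted lines mark a log2 value of 5, and the diagonal marks equal values. Most red points sit left of 5 on the x axis and above 5 on the y axis, and most blue points sit under 5 on both.

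Most genes called higher at 48 h also had a high level in cells from uninjured muscle. Of the 1686 genes called higher, 1482 (87.9%) had a mean of at least 5 on the uninjured WT arrays. That share was not set against the one over all gene symbols. The uninjured arrays had more probe sets above 5 than any other WT array used. A small set of 47 of the 1686 genes (2.79%) had an uninjured mean under 4 and a 48 h mean of at least 5. Of these 47, 21 were also called higher from 12 h to 48 h in Sdc4-/- cells. The largest rise of the 47 was that of Arg1, which encodes arginase 1, an enzyme of arginine breakdown made by repair macrophages. Arg1 had a mean of 2.28 in cells from uninjured muscle, and read 3.18, 3.21 and 2.43 at 12 h and 10.51, 11.59 and 11.25 at 48 h. The times did not overlap, as was so for 46.4% of all probe sets (difference 8.18 ± 1.19 (SE), limma adjusted p = 0.000745). Each SE and adjusted p printed comes from the limma fit over 17 arrays of 6 groups, not from the 6 arrays compared alone. Next came Ppbp, the platelet basic protein chemokine, with means of 3.04, 3.73 and 9.87 in uninjured, 12 h and 48 h cells, and Il10, an anti-inflammatory cytokine, with means of 3.23, 2.54 and 7.86. Fcgr1, the high-affinity IgG receptor of macrophages (3.12, 2.69 and 7.91), and the monocyte chemoattractant gene Ccl12 (2.84, 2.64 and 7.60) were also among them.

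**Figure D2:**
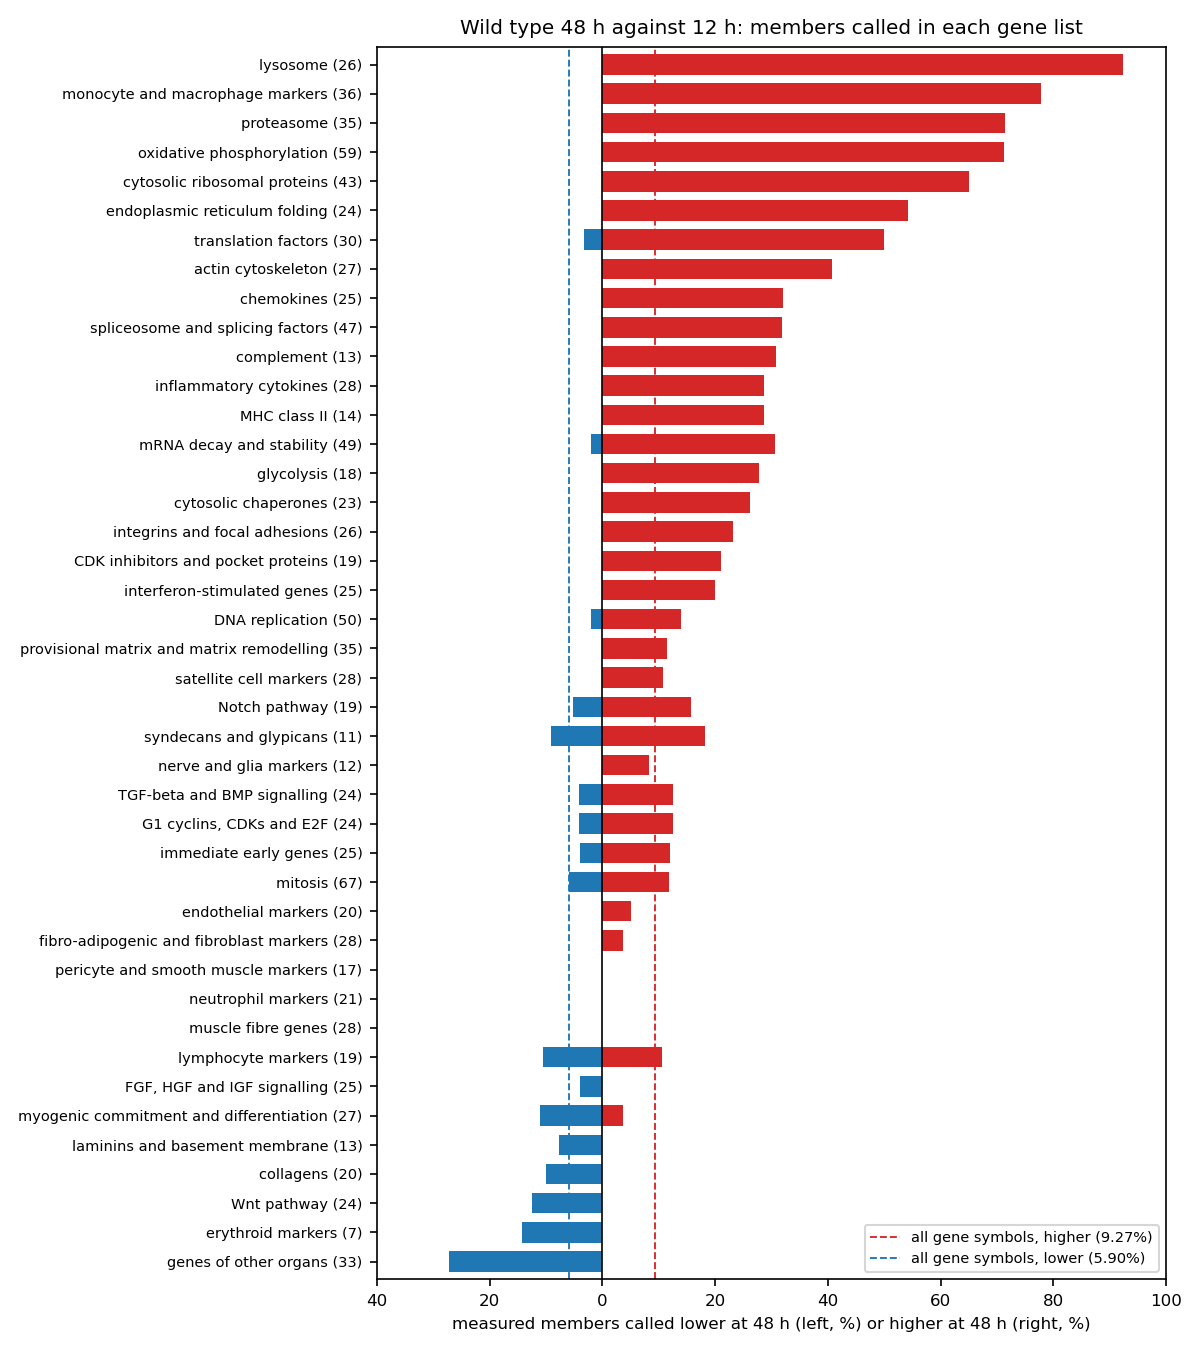
Share of the measured members of 42 gene lists that were called lower at 48 h (blue, to the left) or higher at 48 h (red, to the right), in percent, with the number of measured members in brackets. Dashed lines give the same shares over all gene symbols, 9.27% higher and 5.90% lower. Lysosome, macrophage, proteasome, oxidative phosphorylation and ribosomal protein genes have 65.1% to 92.3% of their members called higher.

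Genes of monocytes and macrophages rose together. Of 36 measured markers 28 were called higher at 48 h and 0 lower, against 9.27% of all gene symbols, and the list's median difference was 4.80 against -0.06 over all gene symbols. The mean level of the list was 3.90 to 4.95 on the 12 h arrays and 8.96 to 9.16 on the 48 h arrays, and 5 to 12 of its members lay above a log2 value of 5 at 12 h and 28 to 30 at 48 h. Csf1r read 2.23, 4.50 and 2.12 at 12 h and 12.91, 12.43 and 12.74 at 48 h, the largest rise in the list and the next to largest among all genes that the naming rule ranks (9.74 ± 0.66 (SE), adjusted p = 1.85e-06). Cd68, a lysosomal glycoprotein of macrophages, read 2.75, 2.69 and 2.66 at 12 h and 9.22, 9.43 and 8.79 at 48 h (6.44 ± 0.69 (SE), adjusted p = 6.34e-05). Adgre1, the F4/80 antigen of mature mouse macrophages, read 2.55, 3.12 and 2.86 and then 8.89, 7.89 and 8.68 (5.64 ± 0.78 (SE), adjusted p = 0.000505). All 3 defining markers of the lineage were well above background on every 48 h array, and at 12 h only Csf1r on replicate 2 read above 4.

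Mrc1, Cd163 and Laptm5 were chosen after their values were seen. Mrc1, the mannose receptor CD206, read 4.22, 3.32 and 3.28 at 12 h and 11.29, 11.60 and 11.06 at 48 h. Cd163, which takes up haemoglobin bound to haptoglobin, read 3.94, 6.32 and 4.65 and then 10.93, 13.14 and 13.19. Both sets of arrays lay far apart, with differences of 7.71 ± 1.09 and 7.45 ± 1.09 (SE), and adjusted p = 0.000602 and 0.000762. Laptm5, a lysosomal membrane protein of blood cells, had means of 7.06 and 12.93, and its 12 h arrays (9.39, 4.62 and 7.19) spread more widely than the 48 h arrays. Cx3cr1, the fractalkine receptor of resident and patrolling cells, had the lowest difference of the list, with means near 4 at both times (-0.17, adjusted p = 0.857). Itgam, the integrin chain CD11b shared by monocytes and neutrophils, was called at a smaller difference of 1.53 (adjusted p = 0.0441), and that call was lost without either of 12 h replicates 2 and 3 or 48 h replicates 2 and 3. Ptprc, the pan-leukocyte antigen CD45, read 6.30, 2.42 and 8.88 at 12 h and 10.13, 10.92 and 10.20 at 48 h, and its call (4.55, adjusted p = 0.0228) was lost without any 1 of the 48 h arrays.

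Of the 36 markers 17 were called higher with only the 6 arrays compared in the fit, 17 with the hybridization controls as a covariate and 21 without 12 h replicates 2 and 3, the 2 arrays with the fewest probe sets above 5. Of the 28 called markers 19 had an uninjured mean of at least 5. Csf1r had an uninjured mean of 11.44 and Mrc1 of 8.55, whereas Arg1, Fcgr1 and Cd68 had uninjured means of 2.28, 3.12 and 4.36. In Sdc4-/- cells the list level was 7.30 to 8.32 at 12 h, above each WT 12 h array, and 9.52 to 9.63 at 48 h. The list's median difference from 12 h to 48 h was 1.58 in Sdc4-/- cells, with 11 members called higher.

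**Figure D3:**
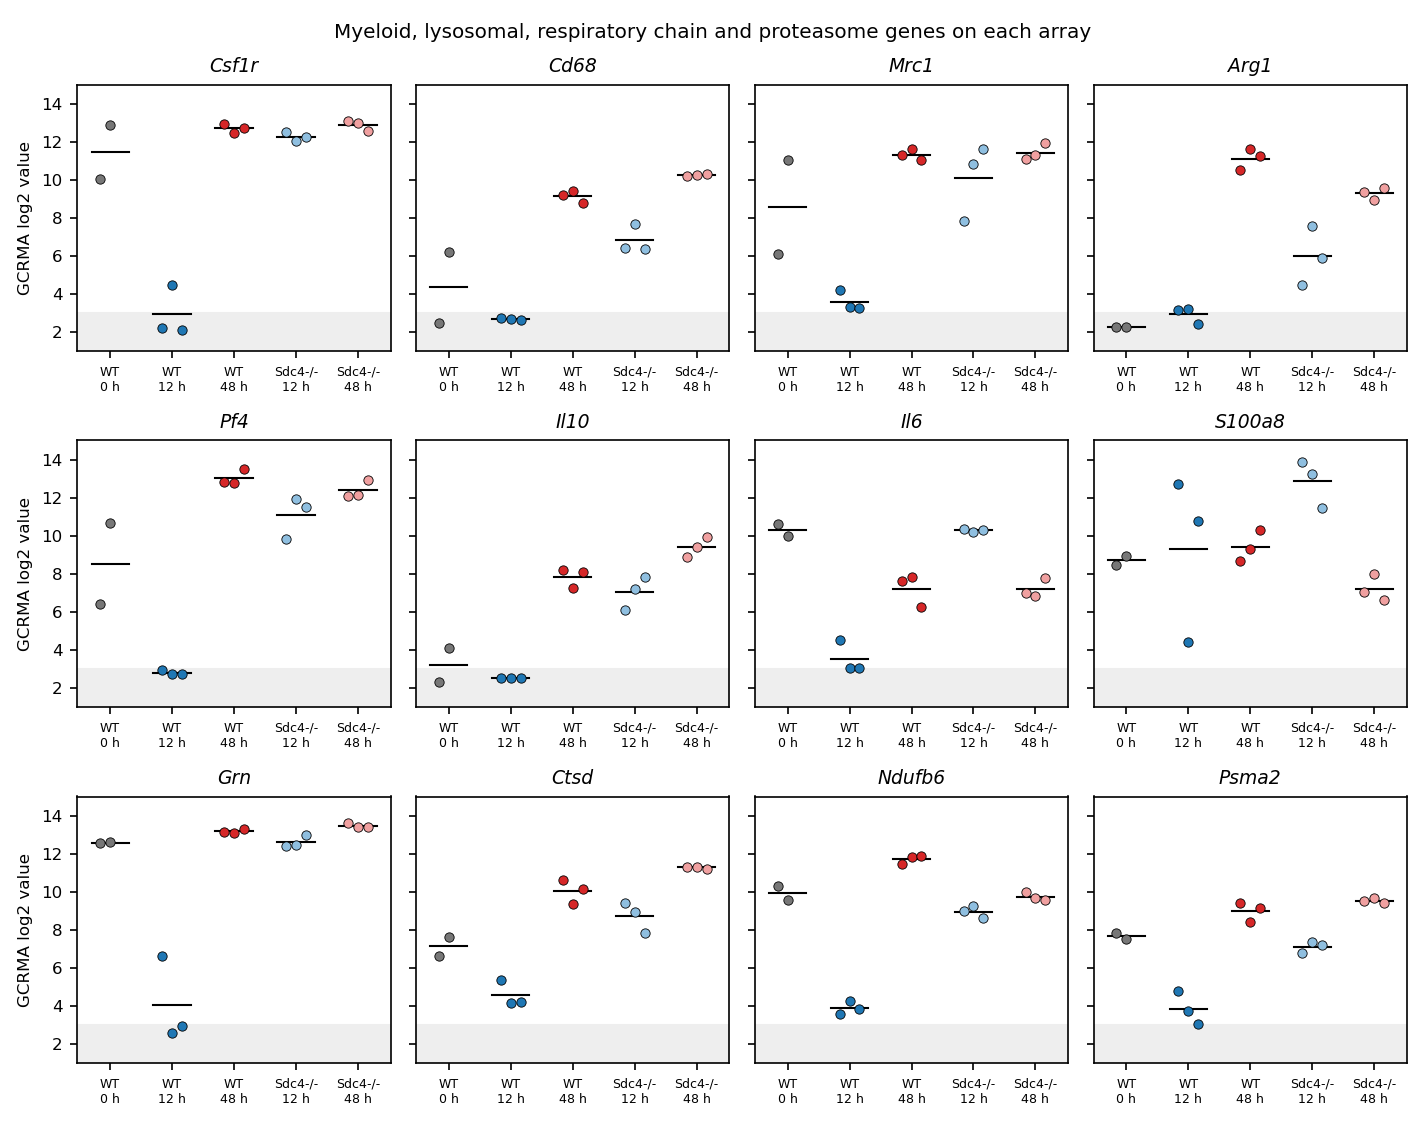
GCRMA log2 values of 12 genes on each array (points) with the group mean (line) for WT cells at 0 h (uninjured), 12 h and 48 h and for Sdc4-/- cells at 12 h and 48 h. The grey band marks log2 values of 1 to 3. For 11 of the 12 genes the 3 WT 12 h points lie below the 3 WT 48 h points, and S100a8, a neutrophil gene, is the one whose times overlap.

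Of 14 measured genes of MHC class II presentation 4 were called higher (28.6% against 9.27% of all gene symbols) and 0 lower (median 0.35). These were Ctss, the cathepsin that trims the invariant chain, Ifi30, a lysosomal thiol reductase, Cd83, a surface marker of activated antigen-presenting cells, and H2-Aa, an MHC class II chain. Ctss read 8.01, 3.95 and 6.62 at 12 h and 13.95, 14.07 and 14.13 at 48 h. H2-Aa read 3.10, 2.40 and 2.38 at 12 h and 3.87, 8.36 and 7.54 at 48 h, so that 48 h replicate 1 lay close to the 12 h arrays. Its call (3.96, limma adjusted p = 0.0121) was lost without 48 h replicate 3 and with array weights. It was also lost with only the 6 arrays compared and with the hybridization controls as a covariate. Cd74, the invariant chain, read 4.90, 4.67 and 4.91 and then 3.93, 4.45 and 3.29 (adjusted p = 0.356). Of 13 measured complement genes 4 were called higher (30.8%) and 0 lower (median 0.01), among them C1qa and C1qb, subunits of the complement starter C1q, and C3ar1, a receptor for the fragment C3a. Without 12 h replicates 2 and 3, 2 genes were called in each of these lists. C1qb read 4.72, 7.31 and 5.81 at 12 h and 12.67, 12.40 and 12.51 at 48 h, without overlap (6.58 ± 0.86 (SE), adjusted p = 0.000329).

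Markers of the other cells that the sort could hold did not show this pattern. Of 21 measured neutrophil markers 0 were called in either direction by limma (1 higher and 1 lower at an unadjusted p under 0.05), and the median difference was -0.06. S100a8, a subunit of the neutrophil protein calprotectin, read 12.73, 4.41 and 10.79 at 12 h and 8.68, 9.29 and 10.30 at 48 h, so that the 12 h arrays lay on both sides of the 48 h arrays. S100a9, its partner, read 11.10, 4.44 and 9.34 and then 6.53, 7.31 and 7.81. Without 12 h replicate 2, the low array for both genes, S100a9 was called lower (-3.00), and without 12 h replicates 2 and 3 the count was 3 lower. In Sdc4-/- cells 8 neutrophil markers were called lower from 12 h to 48 h, and 3 of the 21 differences were called above those of Sdc4-/- cells.

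Endothelial genes had 1 of 20 members called higher, which was Cd36, a fatty acid and thrombospondin receptor that macrophages also carry (3.72, 5.03 and 5.05 at 12 h and 9.46, 8.12 and 8.62 at 48 h), and 0 lower. The defining endothelial markers Pecam1 and Cdh5 had 48 h means of 2.58 and 2.72. Fibro-adipogenic genes had 1 of 28 called higher, which was Fn1, and 0 lower, with the defining markers Pdgfra at 5.93, 4.77 and 3.69 and Dcn at 3.08, 3.10 and 3.07 at 48 h. Pericyte and smooth muscle genes had 0 of 17 called (2 higher and 2 lower at an unadjusted p under 0.05), with Rgs5 at 12.24, 9.79 and 10.86 at 12 h and 7.84, 9.83 and 7.69 at 48 h (adjusted p = 0.174). Lymphocyte genes had 2 of 19 called higher and 2 lower, the T cell marker Cd3e staying between 2.45 and 2.61 on the 6 arrays. Nerve and glia genes had 1 of 12 called higher and 0 lower, and erythroid genes 0 of 7 higher and 1 lower.

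Few satellite cell and muscle genes were called. Of 28 satellite cell markers 3 were called higher and 0 lower (median -0.06), a share near the 9.27% of all gene symbols. The 3 were Vcam1, an adhesion molecule of satellite cells that macrophages and endothelium also carry, Sdc4 and Foxo3. Vcam1 read 3.14, 3.42 and 3.24 at 12 h and 6.01, 7.73 and 7.99 at 48 h, with an uninjured mean of 7.21 (3.97 ± 0.60 (SE), adjusted p = 0.000981). Sdc4 read 4.18, 4.20 and 3.71 at 12 h and 6.88, 8.0 and 8.11 at 48 h, above its uninjured mean of 4.64 and without overlap between times (3.63 ± 0.68 (SE), adjusted p = 0.00428). In Sdc4-/- cells its probe set read means of 4.72 and 4.92, a difference of 0.21 (adjusted p = 0.941). Sdc3, the gene of the antigen used in the sort, read 5.0, 5.10 and 4.25 and then 6.09, 5.56 and 6.11 (1.14 ± 0.40 (SE), adjusted p = 0.0891). Met, the receptor for hepatocyte growth factor, had overlapping arrays (adjusted p = 0.962). The call of Sdc4 was lost with the hybridization controls as a covariate (3.48) and without 12 h replicates 2 and 3 (3.48). Foxo3 had the smallest of the 3 differences (1.37), lost its call with only the 6 arrays compared in the fit and read -0.20 after quantile normalization.

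Of 27 genes of myogenic commitment and differentiation 1 was called higher, Mef2a (2.67, limma adjusted p = 0.00231). It encodes a transcription factor that muscle shares with other tissues. The call of Mef2a was lost after quantile normalization, where its difference was 1.41. Called lower were 3, the largest fall being that of the fusion factor gene Mymx (-1.05), which went from 4.72 to 4.77 at 12 h to 3.49 to 3.81 at 48 h. Myog, an early gene of muscle differentiation, stayed between 2.70 and 3.02 on the 6 arrays, and Des, which encodes the muscle intermediate filament desmin, between 3.01 and 5.02. Of 28 muscle fibre genes 0 were called by limma, with 0 higher and 2 lower at an unadjusted p under 0.05. Among 11 syndecans and glypicans 2 were called higher and 1 lower (18.2% and 9.09%, against 9.27% and 5.90% of all gene symbols).

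**Figure D4:**
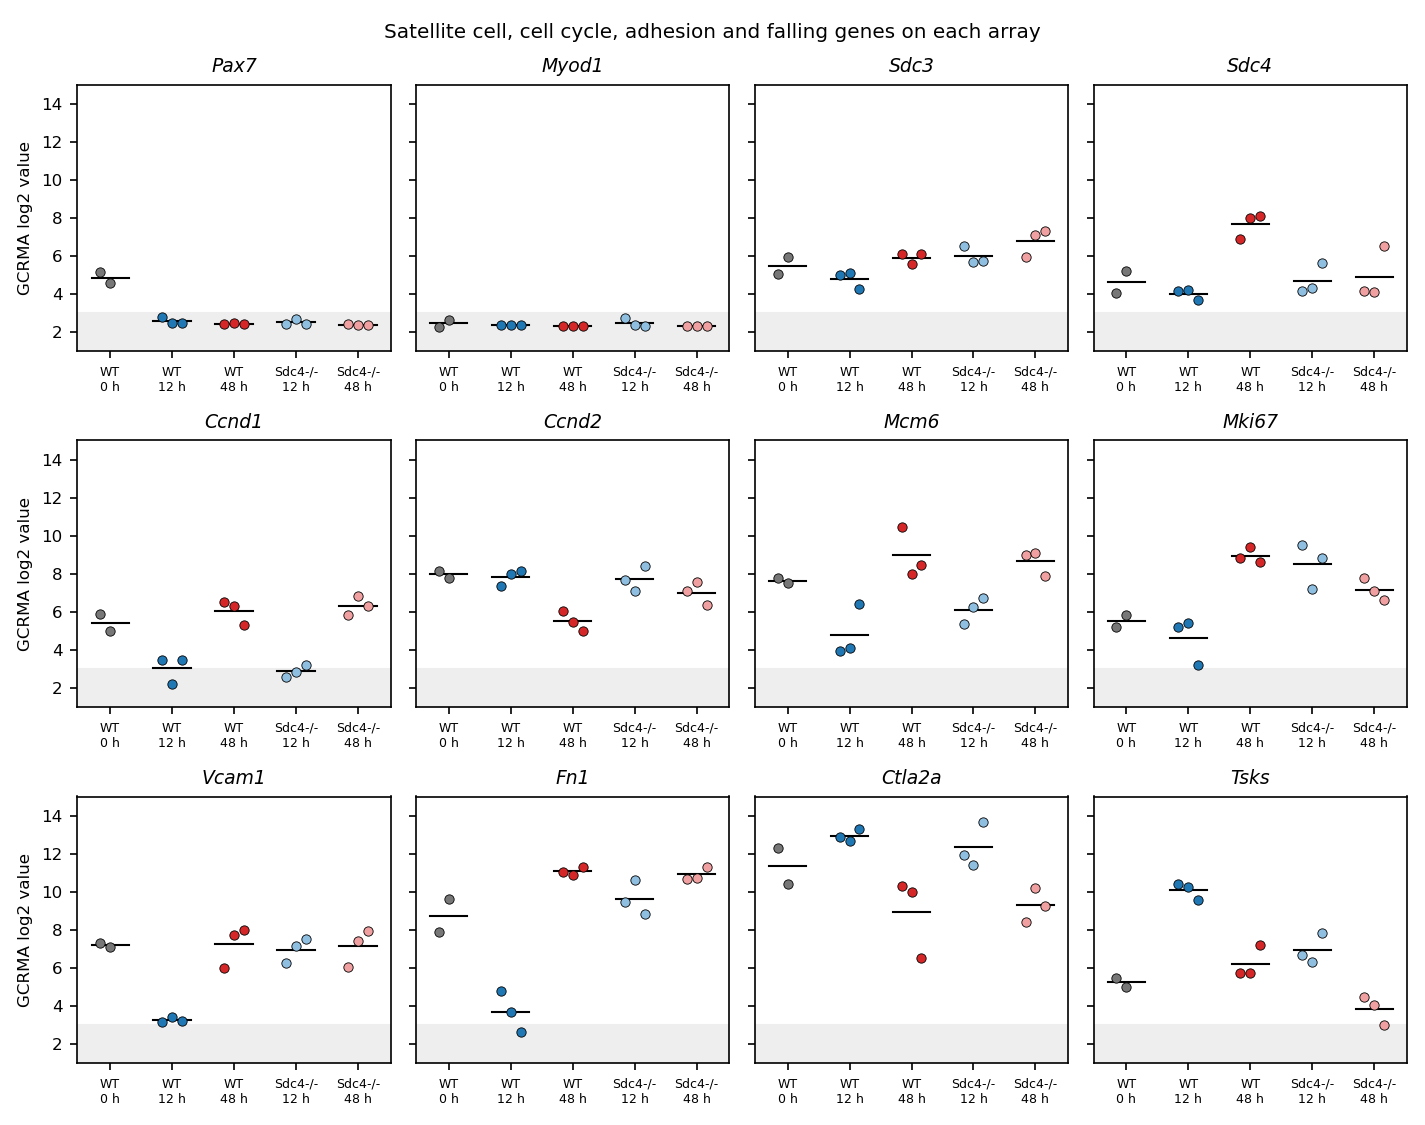
GCRMA log2 values of 12 genes on each array (points) with the group mean (line), groups and grey band (log2 values of 1 to 3) as in the plot of myeloid and machinery genes. Pax7 and Myod1 lie inside the grey band at 12 h and 48 h, Sdc4, Ccnd1, Mcm6, Mki67, Vcam1 and Fn1 are higher at 48 h on the 3 WT arrays, and Ccnd2, Ctla2a and Tsks are lower.

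Chemokine genes known from macrophages and platelets led the rises among secreted signals. Of 25 measured chemokine genes 8 were called higher (32% against 9.27% of all gene symbols) and 0 lower (median 1.74). Of the 22 whose level averaged 4 or more, 8 were called higher, against 26.3% of all such gene symbols. Pf4, platelet factor 4, had the largest rise that the naming rule ranks. It read 2.94, 2.76 and 2.73 at 12 h and 12.82, 12.79 and 13.49 at 48 h, with an uninjured mean of 8.54 (10.22 ± 0.82 (SE), adjusted p = 6.57e-06). The macrophage chemokines Ccl9 and Ccl6 followed. Ccl9 read 3.47, 3.66 and 2.46 and then 11.87, 12.39 and 12.02, and Ccl6 read 4.66, 4.47 and 3.36 and then 12.64, 12.85 and 12.68. Cxcl16, a membrane-bound chemokine and scavenger receptor, rose by 3.37 (adjusted p = 0.000325). Cxcl1 and Cxcl2, which attract neutrophils, were already high at 12 h, at 14.19, 9.72 and 14.37 and at 13.51, 10.86 and 13.26, with 48 h means of 14.50 and 13.61 (adjusted p = 0.255 and 0.395). For both, 12 h replicate 2 was the low array.

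Of 28 genes of inflammatory cytokines and related factors 8 were called higher (28.6% against 9.27% of all gene symbols) and 0 lower (median 1.17). Of the 23 whose level averaged 4 or more, 8 were called higher, against 26.3% of all such gene symbols. Il10 read 2.52, 2.56 and 2.53 at 12 h and 8.19, 7.29 and 8.11 at 48 h, the largest rise of the list (5.33 ± 0.65 (SE), adjusted p = 0.000193). Il6, a cytokine that acts on satellite cells as well as leukocytes, read 4.52, 3.07 and 3.04 and then 7.63, 7.83 and 6.24, with an uninjured mean of 10.32. Its arrays did not overlap, but the 48 h values stayed below the uninjured ones (3.69 ± 0.54 (SE), limma adjusted p = 0.000822 for 48 h against 12 h). The call of Il6 was lost with all 18 arrays fitted and with only the 6 arrays compared. Tnf was called at 3.12 (adjusted p = 0.0182), a call lost without 48 h replicate 1 or 3, and Ptgs2, the inducible cyclooxygenase, at 3.58 (adjusted p = 0.00452). The calls of Tnf and Ptgs2 were lost with only the 6 arrays compared in the fit. They were also lost with the hybridization controls as a covariate and after quantile normalization (1.82 and 1.52). Il1b read 11.66, 3.08 and 11.08 at 12 h and 11.08, 11.90 and 11.59 at 48 h (adjusted p = 0.308), and Nfkbia, an inhibitor and early target of NF-kB, read 13.33 to 14.05 and 13.40 to 13.60 (adjusted p = 0.773). The cytokine count was 1 with only the 6 arrays in the fit and 2 with the hybridization controls as a covariate. Rises over all gene symbols fell too, from 1686 to 554 with only the 6 arrays and to 875 with the covariate. The cytokine count was 5 without 12 h replicate 2, and 4 without either of 48 h replicates 2 and 3.

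Lysosomal genes had the highest share of called members. Of 26 measured members 24 were called higher and 0 lower (median 4.79), 15 of 16 hydrolases and membrane proteins and 9 of 10 subunits of the proton pump that acidifies the lysosome. The mean level of the list was 4.14 to 5.78 on the 12 h arrays and 9.63 to 10.04 on the 48 h arrays, and 22 of the 24 had an uninjured mean of at least 5. Grn, the precursor of granulins, read 6.65, 2.57 and 2.98 at 12 h and 13.15, 13.09 and 13.31 at 48 h (9.12 ± 0.76 (SE), adjusted p = 8.65e-06). Ctsd, the aspartic protease cathepsin D, read 5.39, 4.16 and 4.24 and then 10.61, 9.36 and 10.15. The pump subunit Atp6v1a read 3.95, 4.62 and 4.44 and then 9.49, 9.20 and 9.0 (4.90 ± 0.22 (SE), adjusted p = 8.37e-08). Replicates of Atp6v1a differed by under 1 at either time, so that its difference was many times their spread. Psap, which encodes the activators of sphingolipid breakdown, and Atp6ap1, an accessory pump subunit, rose by 5.40 and 5.22. The smallest difference, that of the pump subunit Atp6v1f, was 1.98 and not called (adjusted p = 0.0698), with 48 h replicate 2 at 5.61 among the 12 h values. Without that array it was called, at 2.92. The count was 14 with only the 6 arrays in the fit, 18 with the hybridization controls as a covariate and 20 without 12 h replicates 2 and 3.

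Mitochondrial respiratory genes rose in each complex. Of 59 measured subunits 42 were called higher and 0 lower (median 3.98): 21 of 25 of complex I, 3 of 4 of complex II, 5 of 9 of complex III, 5 of 9 of complex IV and 8 of 11 of the ATP synthase. Of the 42 called 39 had an uninjured mean of at least 5. Ndufb6, a subunit of complex I, read 3.61, 4.28 and 3.87 at 12 h and 11.47, 11.84 and 11.90 at 48 h, above its uninjured mean of 9.93 (7.82 ± 0.23 (SE), adjusted p = 4.83e-09). Ndufs8 and Ndufa1 of complex I, Cox5a of complex IV and Atp5c1 of the ATP synthase rose by 7.90, 6.28, 7.99 and 7.73. Uqcrb of complex III, the largest difference of the list (8.07), read 12.42, 2.25 and 2.54 at 12 h against 13.65 to 13.92 at 48 h. Its 12 h replicate 1 was thus close to the 48 h arrays, and its call (adjusted p = 0.0171) was lost without 12 h replicate 2, 12 h replicate 3 or 48 h replicate 1. Cox7c had the lowest difference (-1.73, adjusted p = 0.172), which was called without 12 h replicate 1 (-2.58). The count was 18 with only the 6 arrays in the fit, 26 with the hybridization controls as a covariate and 39 without 12 h replicates 2 and 3. Of 18 glycolysis genes 5 were called higher (27.8% against 9.27% of all gene symbols) and 0 lower (median 1.67), led by Pdk1 and Tpi1. Of the 15 whose level averaged 4 or more, 5 were called higher, against 26.3% of all such gene symbols. Pdk1, a kinase that inhibits pyruvate dehydrogenase, rose by 6.27 (limma adjusted p = 3.47e-05). Tpi1, triose phosphate isomerase, rose by 4.71 (limma adjusted p = 0.000358). The glycolysis count was 10 without 12 h replicate 1 and 8 without either of 12 h replicates 2 and 3.

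Protein turnover and protein synthesis followed. Of 35 proteasome genes 25 were called higher and 0 lower (median 3.35), 13 of 17 in the core particle that cuts proteins, 5 of 6 ATPases and 6 of 11 other subunits of the particle that feeds it. Psma2 of the core read 4.78, 3.73 and 3.07 at 12 h and 9.40, 8.41 and 9.17 at 48 h, and Psmd8 read 2.32, 2.27 and 2.33 and then 7.66, 7.41 and 8.06, with no overlap in either. Psmd14, which removes ubiquitin, had the largest difference (6.90, adjusted p = 2.69e-05) and Psmd7 the smallest (-0.06). The count was 6 with only the 6 arrays in the fit, 16 with the hybridization controls as a covariate, 15 after a further quantile normalization and 20 without 12 h replicates 2 and 3.

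Of 43 measured genes of cytosolic ribosomal proteins 28 were called higher and 0 lower (median 3.23), 12 of 22 in the large and 16 of 21 in the small subunit. Their probe sets can also read near-identical processed copies elsewhere in the genome. The list level was 5.90 to 8.60 on the 12 h arrays, lowest on replicate 2, and 10.44 to 10.48 on the 48 h arrays. Rps29 was high at both times, at 12.14, 12.31 and 12.53 and then 13.80, 13.73 and 13.74, and its small difference still passed (1.43 ± 0.16 (SE), adjusted p = 8.83e-05). Rpl4 read 8.71, 7.40 and 7.54 and then 11.80, 11.52 and 11.07. Rps25 had the largest difference (5.06) and Rps16 the lowest (-0.06). The count was 4 with only the 6 arrays in the fit, 8 with the hybridization controls as a covariate, 15 after quantile normalization and 24 without 12 h replicates 2 and 3, where the median was 1.62.

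Of 30 translation factor genes 15 were called higher (50% against 9.27% of all gene symbols) and 1 lower (median 1.79). Eif4h, a helper of the RNA helicase that unwinds leader sequences, rose most (7.74, adjusted p = 4.86e-07), Eef1d, an elongation factor, rose by 5.37, and Eif4ebp1, which holds back cap-dependent initiation, by 5.16. The 1 lower was Eif4a3, a helicase of the exon junction complex (-0.75, adjusted p = 0.0134), whose values lay between 3.93 and 5.02 on the 6 arrays and whose call was lost without 48 h replicate 1. Of 24 genes of protein folding in the endoplasmic reticulum 13 were called higher and 0 lower (median 2.68). Calr and Canx, the lectin chaperones calreticulin and calnexin, rose by 6.80 and 4.0, and Hsp90b1, the chaperone of the endoplasmic reticulum also called Grp94, rose by 4.04. Of 23 cytosolic chaperone genes 6 were called higher and 0 lower (median 1.17), with 4 of 8 subunits of the chaperonin that folds actin and tubulin. Its subunit genes Cct3 and Cct5 rose by 7.70 and 5.30. Of the 22 cytosolic chaperone genes whose level averaged 4 or more, 5 were called higher, against 26.3% of all such gene symbols. Of 27 actin cytoskeleton genes 11 were called higher (40.7% against 9.27% of all gene symbols) and 0 lower (median 2.12). The 11 included Capza2, a capping protein (7.15), Arpc5 of the Arp2/3 complex (5.63) and Tmsb4x, which stores actin monomers (3.80).

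**Figure D5:**
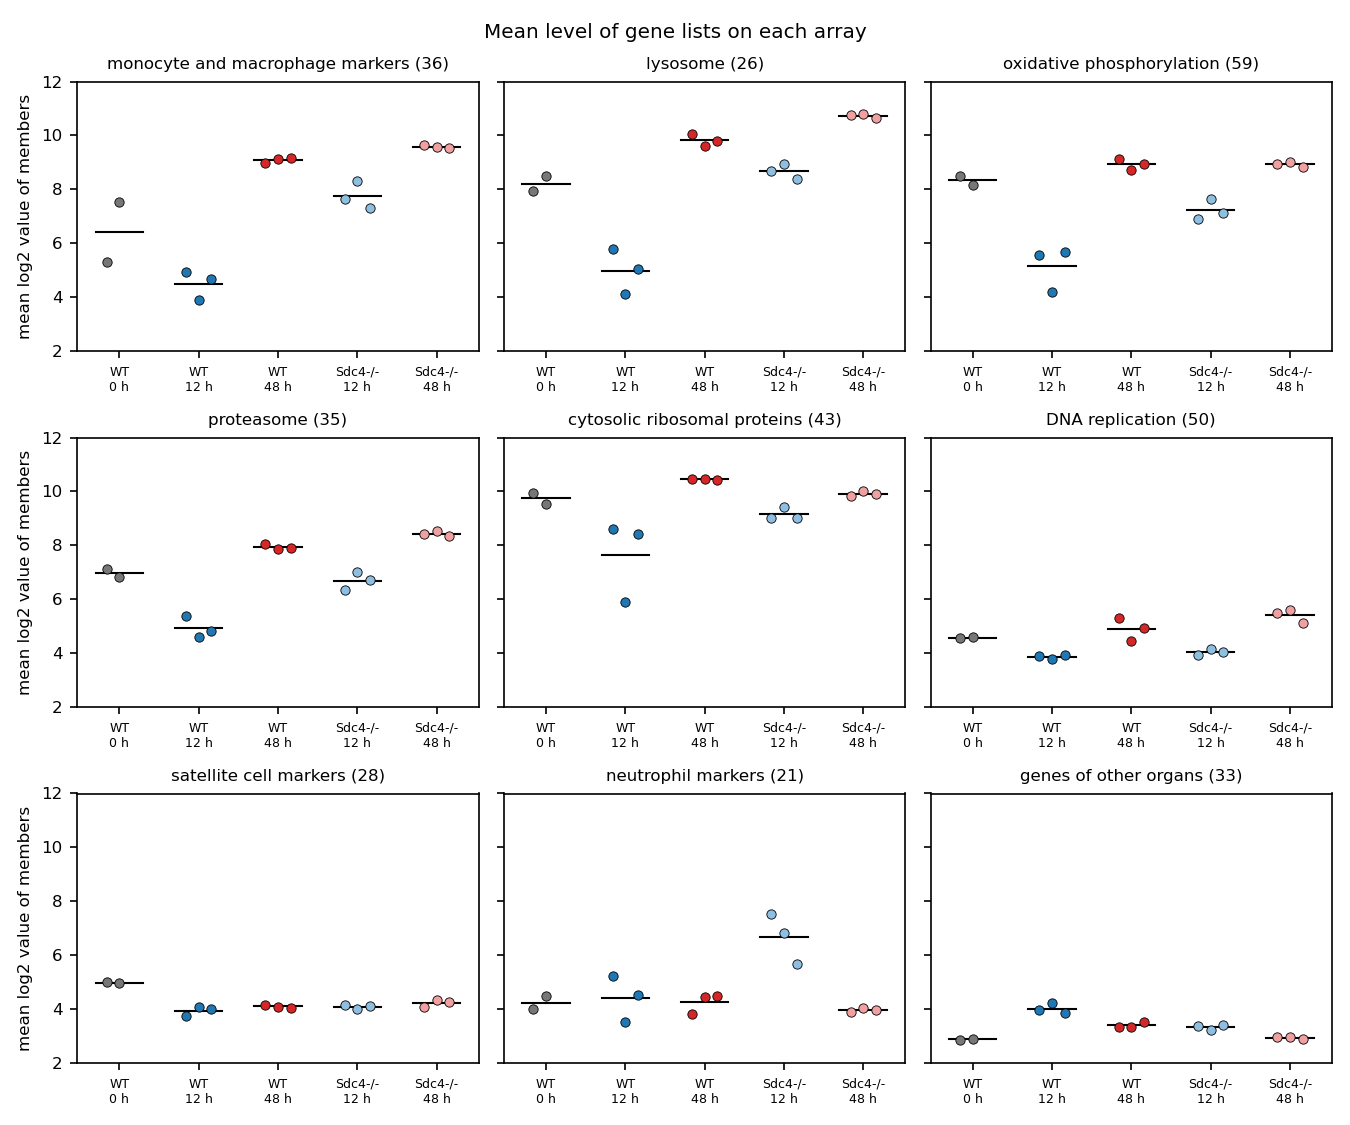
Mean GCRMA log2 value over the measured members of 9 gene lists on each array (points) with the group mean (line), with the number of members in brackets. Macrophage, lysosome, oxidative phosphorylation, proteasome and ribosomal protein lists are lower on each of the 3 WT 12 h arrays than on each of the 3 WT 48 h arrays, and those of satellite cell markers lie between 3.74 and 4.18 on these 6 arrays.

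RNA-processing genes, the subject of the study, rose in part. Of 47 spliceosome and splicing factor genes 15 were called higher (31.9% against 9.27% of all gene symbols) and 0 lower (median 1.43). Of the 41 whose level averaged 4 or more, 15 were called higher, against 26.3% of all such gene symbols. Snrpa1, a protein of the U2 snRNP, read 3.81, 3.96 and 3.88 at 12 h and 10.67, 11.28 and 10.50 at 48 h, against 8.22 in uninjured cells (6.93 ± 0.31 (SE), adjusted p = 7.62e-08). Hnrnpr, an RNA-binding protein of nascent transcripts, read 2.87, 2.58 and 2.61 and then 9.81, 8.70 and 8.04. Sf3b1, the branch point factor, had the lowest difference (-0.13), with values of 8.29 to 10.62 across the 6 arrays. Of 49 genes of mRNA decay and stability 15 were called higher (30.6%) and 1 lower (2.04%, median 1.25). Of the 38 whose level averaged 4 or more, 15 were called higher. Celf2, a CUG-binding regulator of splicing and translation, rose most (5.22, adjusted p = 4.18e-05), Cnot7, a deadenylase of the CCR4-NOT complex, rose by 4.18, and Tial1, an AU-rich element binder, by 2.51. The call of Tial1 was lost with only the 6 arrays compared in the fit and after quantile normalization, where its difference was 0.30. Zfp36, or tristetraprolin, which targets AU-rich messages for decay, read 5.12, 4.86 and 5.29 and then 7.69, 7.31 and 7.64, with an uninjured mean of 9.17. Its replicates were tight at both times (2.46 ± 0.19 (SE), adjusted p = 4.94e-06). Elavl1, the stabilizing protein HuR, read 4.94, 5.09 and 5.01 and then 4.65, 6.95 and 5.12 (adjusted p = 0.476). The 1 called lower was Celf4, a neuronal relative of Celf2 (-1.80, adjusted p = 0.00616). Its call was lost with only the 6 arrays compared in the fit and with the hybridization controls as a covariate (-1.41). Without 12 h replicates 2 and 3 the splicing count was 12 and the decay count 8 higher. After quantile normalization the splicing count was 8 higher and 2 lower and the decay count 9 higher and 2 lower.

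Of 25 measured genes that the study lists for RNA processing or for quantitative PCR, chosen with the WT 12 h arrays used here, 10 were called higher and 1 lower (median 2.43). That choice makes the list no independent evidence of direction. Pqbp1, a polyglutamine-binding splicing cofactor, read 2.98, 2.78 and 3.89 at 12 h and 8.59, 8.90 and 8.96 at 48 h (5.60, adjusted p = 3.39e-06). Of 33 measured genes that the study chose for a change between uninjured and 48 h WT cells, 2 were called higher and 2 lower between 12 h and 48 h (median -0.22). Both shares, 6.06%, are near those of all gene symbols.

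Cell cycle genes split. Mki67, which encodes the proliferation antigen Ki-67, read 5.22, 5.40 and 3.25 at 12 h and 8.82, 9.40 and 8.65 at 48 h, with an uninjured mean of 5.53 (4.33 ± 0.65 (SE), adjusted p = 0.000927). Cdk1, the mitotic kinase, read 3.00, 2.80 and 3.13 and then 5.99, 2.97 and 3.87 and was not called (adjusted p = 0.208), except without 48 h replicate 2 (1.95). Of 50 DNA replication genes 7 were called higher and 1 lower (median 0.52), 14% against 9.27% of all gene symbols, and 7 of the 28 members whose level averaged 4 or more were called higher, against 26.3% of all such gene symbols. Rpa1, of the single-strand binding complex, read 2.69, 2.71 and 2.55 and then 9.55, 9.82 and 10.64, Mcm6, of the replicative helicase, read 3.94, 4.10 and 6.41 and then 10.47, 7.97 and 8.49, and Cdt1, a licensing factor, read 2.48, 2.40 and 2.38 and then 9.31, 6.05 and 8.97. The arrays of these 3 genes did not overlap between times. Of the 6 helicase subunits 3 were called higher. Cdc45, the helicase cofactor, was called lower at -1.25 from values of 5.01 to 5.09, a small and tight difference. The replication count was 13 without 48 h replicate 2, 4 without 48 h replicate 1, 3 without 12 h replicates 2 and 3, 4 with the hybridization controls as a covariate and 1 with only the 6 arrays compared in the fit. The calls of Mki67, Mcm6 and Cdt1 were lost with only those 6 arrays. Those of Mki67 and Mcm6 were also lost after quantile normalization (2.76 and 2.90).

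Of 67 mitosis genes 8 were called higher and 4 lower (median 0.04), shares of 11.9% and 5.97%, with 2 lower without 48 h replicate 1. Bub3, of the spindle checkpoint, rose by 5.31, Cdca8 and Incenp, of the chromosomal passenger complex, by 5.05 and 4.17, and Tubb5, a tubulin, by 6.27. Of 24 genes of G1 cyclins, their kinases and E2F factors 3 were called higher and 1 lower (12.5% and 4.17%, median 0.11). Over all gene symbols the shares were 9.27% and 5.90%. Of the 11 G1 genes whose level averaged 4 or more, 3 were called higher, against 26.3% of all such gene symbols. The cyclin D genes went opposite ways. Ccnd1 read 3.48, 2.21 and 3.50 at 12 h and 6.53, 6.33 and 5.31 at 48 h (3.00 ± 0.42 (SE), adjusted p = 0.000561), and Ccnd2 read 7.35, 8.0 and 8.17 and then 6.06, 5.45 and 5.02 (-2.33 ± 0.42 (SE), adjusted p = 0.00335). Neither overlapped, but both calls were lost with only the 6 arrays compared in the fit, where the list had 0 members called in either direction. The call of Ccnd2 was also lost with the hybridization controls as a covariate (-1.50) and without 12 h replicates 2 and 3 (-1.83). Cks1b, a subunit of cyclin-dependent kinases, rose by 3.65. Its call was lost with only the 6 arrays compared, with the covariate (2.11) and after quantile normalization (2.22). Of 19 genes of kinase inhibitors and pocket proteins 4 were called higher (21.1%) and 0 lower (median 0.41). Of the 13 whose level averaged 4 or more, 4 were called higher, against 26.3% of all such gene symbols. Ccng1, a p53 target, had the largest difference (2.81, limma adjusted p = 0.0164). Its call was lost without 48 h replicate 1, with only the 6 arrays compared, with the covariate (3.36) and after quantile normalization (1.20). Without 12 h replicates 2 and 3 its difference was 1.25. That list had 2 members called without 12 h replicate 2, 12 h replicate 3 or 48 h replicate 1.

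Promoters are shown for members of the macrophage, lysosome and respiratory lists, most of whose genes rose, and of the replication and mitosis lists, of which a minority rose. Each sequence is the 250 bases before the annotated start, 5′ to 3′ on the coding strand, from RefSeq on the mouse build GRCm38.p6, with matches of 1 motif in capitals. Each gene shown has its values given above. Genes were picked by the size of their rise from called members whose window held the motif. At least 1 match in each window was thus fixed in advance. Mrc1 and Laptm5, at chr2:14229164-14229413 (+ strand) and chr4:130913066-130913315 (+ strand), are shown with GAGGAAG, a motif of the PU.1 type, which reads CTTCCTC on the other strand. Ctsd, at chr7:142387828-142388077 (- strand), is shown with TCACGTG, an E-box of lysosomal genes, which reads CACGTGA on the other strand, so that a pair of matches on opposite strands can overlap. Ndufb6, at chr4:40279422-40279671 (- strand), is shown with CATGCGC, the core of an NRF1 motif, which reads GCGCATG on the other strand. Mcm6, at chr1:128359706-128359955 (- strand), is shown with E2F sites, of which TTGGCGC and TTCGCGC overlap on opposite strands here. Mki67, at chr7:135716380-135716629 (- strand), is shown with the cell cycle homology region TTTGAA.
Mrc1: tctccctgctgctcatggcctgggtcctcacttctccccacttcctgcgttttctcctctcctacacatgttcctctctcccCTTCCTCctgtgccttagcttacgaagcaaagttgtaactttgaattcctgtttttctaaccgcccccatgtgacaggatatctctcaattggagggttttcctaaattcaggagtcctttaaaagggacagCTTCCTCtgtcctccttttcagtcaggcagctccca
Laptm5: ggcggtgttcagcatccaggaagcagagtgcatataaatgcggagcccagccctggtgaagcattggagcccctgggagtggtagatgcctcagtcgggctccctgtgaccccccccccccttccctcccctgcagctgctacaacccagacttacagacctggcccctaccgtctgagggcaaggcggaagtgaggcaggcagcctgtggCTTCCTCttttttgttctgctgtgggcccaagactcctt
Ctsd: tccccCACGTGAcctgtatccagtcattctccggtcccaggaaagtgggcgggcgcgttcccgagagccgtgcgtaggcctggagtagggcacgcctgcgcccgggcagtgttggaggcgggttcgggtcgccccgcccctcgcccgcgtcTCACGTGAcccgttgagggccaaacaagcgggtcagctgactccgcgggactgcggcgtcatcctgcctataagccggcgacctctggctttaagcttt
Ndufb6: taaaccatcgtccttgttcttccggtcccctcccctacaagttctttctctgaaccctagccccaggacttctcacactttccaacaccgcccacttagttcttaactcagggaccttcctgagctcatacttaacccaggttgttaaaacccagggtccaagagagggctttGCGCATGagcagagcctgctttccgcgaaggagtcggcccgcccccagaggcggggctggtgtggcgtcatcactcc
Mcm6: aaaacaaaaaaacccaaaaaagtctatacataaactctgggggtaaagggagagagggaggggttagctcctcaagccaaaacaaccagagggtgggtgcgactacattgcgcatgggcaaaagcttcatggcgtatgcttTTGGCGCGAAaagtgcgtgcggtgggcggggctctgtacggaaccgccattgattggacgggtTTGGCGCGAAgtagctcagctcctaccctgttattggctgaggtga
Mki67: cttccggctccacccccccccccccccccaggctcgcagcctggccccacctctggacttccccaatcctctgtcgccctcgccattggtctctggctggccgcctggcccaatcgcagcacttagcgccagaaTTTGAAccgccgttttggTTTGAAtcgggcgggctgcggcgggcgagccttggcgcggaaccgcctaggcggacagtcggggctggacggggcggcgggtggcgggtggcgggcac
The window of Mrc1 held 2 matches, that of Laptm5 1, that of Ctsd 3, that of Ndufb6 1, that of Mcm6 4 and that of Mki67 2.

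Over the 22862 genes with 1 window of 300 bases, 250 before and 50 after the start, the shares of windows with a motif on either strand were counted. The E2F site, spelled TTCCCGC or TTGGCGC or TTCGCGC or TTGCCGC, was in 20 of 35 replication promoters (57.1%) and 12 of 49 mitosis promoters (24.5%), against 9.55% of all promoters. The cell cycle homology region, TTTGAA or TTCGAA, was in 6 of 35 replication promoters (17.1%) and 37 of 49 mitosis promoters (75.5%), against 19.8% of all. CCAAT was in 20 of 35 (57.1%) and 36 of 49 (73.5%), against 38.2%. TCACGTG was in 7 of 19 lysosome promoters (36.8%, against 3.74% of all), CATGCGC in 10 of 43 respiratory promoters (23.3%, against 3.95%) and GAGGAAG in 7 of 23 macrophage promoters (30.4%, against 13.5%). The last 3 motifs were chosen after the expression values were seen. A match is a run of letters in a window and says nothing of binding, and members without a single window in the table were not counted.

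Of 35 genes of provisional matrix and matrix remodelling 4 were called higher (11.4% against 9.27% of all gene symbols) and 0 lower (median -0.17), namely Fn1, Timp2, Tgfbi and Cd44. Fn1, fibronectin, which macrophages as well as fibroblasts make, read 4.80, 3.69 and 2.65 at 12 h and 11.04, 10.90 and 11.30 at 48 h, above its uninjured mean of 8.75 (7.37 ± 0.61 (SE), adjusted p = 8.45e-06). Timp2, an inhibitor of matrix metalloproteinases, rose by 6.11, Tgfbi, a secreted TGF-beta-induced adhesion protein, by 4.13 and Cd44, the hyaluronan receptor, by 3.20. The calls of Tgfbi and Cd44 were lost with only the 6 arrays compared in the fit and with the hybridization controls as a covariate. That of Cd44 was also lost after quantile normalization (2.00). Of 20 collagen genes 0 were called higher and 2 lower (10% against 5.90% of all gene symbols, median -0.41), and of 13 genes of laminins and the basement membrane 0 higher and 1 lower (7.69%, median -0.95). Among members whose level averaged 4 or more, the median difference was -1.56 over 11 collagen genes and -1.11 over 10 genes of laminins and the basement membrane, against 0.81 over all such gene symbols. Of 26 integrin and focal adhesion genes 6 were called higher (23.1%) and 0 lower (median 0.68), among them Itga4, the partner of Vcam1 on leukocytes (2.35, adjusted p = 0.00218), and Flna, the actin crosslinker filamin A (2.17, adjusted p = 0.00102), and the count was 3 without 12 h replicate 2 or 48 h replicate 1. Of members whose level averaged 4 or more, 4 of 25 provisional matrix and 6 of 18 integrin and focal adhesion genes were called higher. The share of all such gene symbols was 26.3%.

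Of 25 immediate early genes 3 were called higher (12% against 9.27% of all gene symbols) and 1 lower (median 0.35), led by Ier5, a stress-induced nuclear factor (3.27, adjusted p = 0.00275). Of 24 genes of TGF-beta and BMP signalling 3 were called higher (12.5%) and 1 lower (median -0.04). Id2, an inhibitor of basic helix-loop-helix factors, read 5.39, 4.64 and 5.14 at 12 h and 10.49, 9.90 and 10.38 at 48 h, and Smad7, a feedback inhibitor of the pathway, rose by 1.44. The ligand gene Bmp2 was called lower, from 6.20, 5.55 and 6.43 to 3.12, 3.62 and 4.19 (-2.41, adjusted p = 0.0119, lost without 48 h replicate 1). Of 19 Notch pathway genes 3 were called higher (15.8%) and 1 lower (median -0.20), Rbpj, the DNA-binding factor of the pathway, with the largest difference (3.44, adjusted p = 0.00934). Of 24 Wnt pathway genes 0 were called higher and 3 lower (12.5% against 5.90% of all gene symbols, median -0.10, with 1 lower without 48 h replicate 3), and of 25 genes of FGF, HGF and IGF signalling 0 higher and 1 lower (4%, median -0.33). Of 25 interferon-stimulated genes 5 were called higher (20%) and 0 lower (median 0.39), among them Oas1a, a sensor of double-stranded RNA (4.73, adjusted p = 0.00042), and Irf1, an interferon regulatory factor (3.04, adjusted p = 0.00918). Of members whose level averaged 4 or more, 3 of 24 immediate early and 5 of 19 interferon-stimulated genes were called higher. For TGF-beta and BMP genes it was 3 of 16 and for Notch genes 3 of 8, against 26.3% of all such gene symbols. The calls of Ier5, Rbpj and Irf1 were lost with only the 6 arrays compared in the fit. They were also lost with the hybridization controls as a covariate and after quantile normalization.

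Other genes among the 12 largest rises belong to no list above. Vamp3, a vesicle fusion protein, read 3.19, 3.27 and 3.20 at 12 h and 11.17, 11.05 and 11.30 at 48 h, and Efhd2, a calcium-binding actin regulator of immune cells, read 3.57, 2.21 and 2.76 and then 11.41, 11.91 and 11.20. Wdr61, of the complexes that follow transcribing polymerase and guide cytoplasmic decay, rose by 8.05, and Mrpl39, of the mitochondrial ribosome, by 8.21. The 12 h arrays of these 4 genes did not overlap the 48 h arrays, as was so for 46.41% of all probe sets.

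The falls were fewer at measurable levels. Akap12, a scaffold of protein kinase A, fell most by the naming rule, from 10.76, 8.23 and 8.09 at 12 h to 3.40, 4.60 and 2.73 at 48 h, with an uninjured mean of 8.79 (-5.45 ± 1.11 (SE), adjusted p = 0.00688). Ctla2a, a cathepsin inhibitor of the cysteine protease propeptide type, read 12.85, 12.66 and 13.29 and then 10.29, 9.97 and 6.54 (-4.0 ± 0.94 (SE), adjusted p = 0.0145). Sfpq, a splicing factor of paraspeckles, read 9.55, 10.45 and 11.41 and then 8.79, 5.56 and 8.10 by its brightest probe set, and of its 6 probe sets 1 was called higher and 1 lower. The transcript 2610005L07Rik read 13.65, 13.43 and 13.68 and then 10.34, 10.55 and 10.65, and 2 of its 8 probe sets were called lower. The remaining large falls were those of Mbtd1 (-4.73), Gm13238 (-4.35), Tsks (-3.85), C730049O14Rik (-3.70), Enpp3 (-3.24), Pdik1l (-3.12), Slc16a8 (-2.88) and Zfp389 (-2.84). Mbtd1 and Gm13238 also read far apart among the 12 h arrays, with SDs of 2.46 and 1.57 (n = 3). Of these, C730049O14Rik, Enpp3, Pdik1l and Zfp389 lost their calls in 5 or more of the 6 fits with 1 WT array left out, and Sfpq lost its call without 12 h replicate 3. With only the 6 arrays compared in the fit, and with the hybridization controls as a covariate, the calls of Akap12, Ctla2a, Sfpq, Mbtd1, Gm13238, C730049O14Rik, Enpp3, Pdik1l and Zfp389 were lost. With the covariate the difference of Akap12 was -3.35, and that of 2610005L07Rik, whose call was also lost, was -1.45. Tsks and Slc16a8 were called in both fits.

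Several falls were in genes that muscle does not use. Of 33 measured genes of other organs, such as retina, testis and kidney, 9 were called lower and 0 higher (27.3%, against 5.90% of all gene symbols), with a median of -0.26. Tsks, a testis kinase substrate, read 10.41, 10.23 and 9.59 at 12 h and 5.73, 5.73 and 7.22 at 48 h. Slc5a2, a glucose carrier of the kidney, read 8.36, 8.82 and 8.61 and then 6.41, 6.39 and 6.37, Slc16a8, a lactate carrier of the retina, read 7.85, 6.57 and 6.95 and then 4.27, 4.12 and 4.32, and Tnp1, a sperm chromatin protein, read 6.37, 6.01 and 6.88 and then 4.16, 4.47 and 4.25. For each of these 4 genes the 12 h arrays were the highest of the WT arrays, and the list levels were 3.86 to 4.22 at 12 h, 3.35 to 3.53 at 48 h and 2.88 to 2.89 in uninjured cells. The hybridization controls had the same order across these groups. Their means were 13.95 at 12 h, 12.09 at 48 h and 8.40 in uninjured cells. With them as a covariate 5 of the 33 were called lower. In that fit the falls over all 45101 probe sets went from 2986 to 250. These counts are not like for like, since the list counts gene symbols and the whole array counts probe sets. Of the 2986 probe sets called lower, 92.16% had a 12 h mean under 5. The cause of the falls in this list was not tested.

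The time difference was then set against that of Sdc4-/- cells, a comparison that uses the same WT arrays and is no independent support for the differences above. Over probe sets 1006 differences were called, 2183 without WT 12 h replicate 1 and 605 with all 18 arrays fitted. Of 18194 gene symbols the WT difference was called above the Sdc4-/- difference for 382 (2.10%) and below it for 177 (0.973%). Of the 1686 genes called higher in WT, 587 were called higher in Sdc4-/- cells too. The WT difference was called above for 358 of the 1686 (21.23%), the share to set beside lists with many called members. Among the members it was above for 12 of 59 respiratory, 10 of 26 lysosomal, 8 of 36 macrophage, 8 of 24 endoplasmic reticulum folding, 6 of 25 chemokine, 4 of 35 proteasome and 4 of 43 ribosomal protein genes. It was below for 1 of these, Gpnmb, a glycoprotein of lipid-laden macrophages, which read 4.43 to 4.66 at 12 h and 4.56 to 4.67 at 48 h in WT cells and went from a mean of 4.63 to 8.97 in Sdc4-/- cells (-4.28, adjusted p = 0.000387). Csf1r had means of 12.25 and 12.87 in Sdc4-/- cells, against 2.95 and 12.69 in WT cells, and the 2 differences differed by 9.12 (adjusted p = 0.000299), the genotypes being far apart at 12 h and close at 48 h. Il6 fell in Sdc4-/- cells, from 10.28 to 7.20, while it rose in WT cells (6.76, adjusted p = 0.000593). Mki67 had means of 8.53 and 7.17 in Sdc4-/- cells (5.69, adjusted p = 0.00614), and Apoe, a lipid carrier secreted by macrophages, stayed between 4.44 and 5.12 there while it rose from a mean of 5.06 to 8.82 in WT cells (3.95, adjusted p = 0.0174). Ccnd1, in contrast, went from 2.89 to 6.32 in Sdc4-/- cells, and its difference between genotypes was -0.43 (adjusted p = 0.805).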

How the data were processed

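The authors scanned one array per sample and deposited GCRMA log2 values of 45101 probe sets, normalized over the arrays together. GCOS and GCRMA are named without versions, and detection calls were not used here. Of the probe sets 34958 carry 1 gene symbol, 932 several and 9211 none in the platform annotation. The arrays hold no read depth, and their number sets the precision. Samples were grouped by their titles. A single fit across 6 groups and 17 arrays (R 4.3.3, limma 3.58.1, lmFit and eBayes, Benjamini-Hochberg adjustment over 45101 probe sets) gave 48 h minus 12 h in WT cells, the same in Sdc4-/- cells and the difference of both. Uninjured WT replicate 3 was left out because the study dropped 1 uninjured WT array, whose number it does not give. A gene symbol was read by its probe set with the highest mean. The 44 gene lists hold 1252 genes, of which 1137 were measured, and no test was run over a list.

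Named genes were the 12 largest rises and falls with arrays that did not overlap and a higher mean of at least 5, up to 4 called members per list, the lowest or highest member where a list's range is described, a fixed set of cell type and cycle markers, and the study's RNA-processing genes, and not all of these are printed. Apoe, Ccl12, Cd163, Cxcl1, Cxcl2, Fcgr1, Gpnmb, Il1b, Laptm5, Mrc1, Nfkbia and Ppbp fall outside that rule and were chosen after their values were seen, whereas Adgre1, Cd3e, Cdh5 and Dcn are defining markers of their cell types. The comparison, the lists and their members were chosen with earlier results of these data known. Alternatives changed the arrays fitted, the moderation, array weights, the normalization, a filter on low values, the replicate number as a block, the hybridization controls as a covariate and single arrays. The one that leaves out 12 h replicates 2 and 3 together was chosen after seeing the data. The fit was tested on simulated data.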

Additional observations from a re-analysis of the deposited data

Results flagged for a closer look

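For 60 of the named genes the difference from 12 h to 48 h in WT cells was not that of Sdc4-/- cells by limma's test of the difference itself, at an adjusted p under 0.05. Values in brackets are the WT difference minus the Sdc4-/- difference on the log2 scale. The WT arrays are those of the report, so that these values are not independent of the rises and falls given there, and genotype and strain cannot be told apart.

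Among macrophage, antigen presentation and complement genes they were Csf1r (9.12), Cd163 (7.63), Laptm5 (5.96), Ctss (6.54), H2-Aa (5.91), C1qb (6.16), Apoe (3.95) and Gpnmb (-4.28). Secreted signals were Pf4 (8.91), Ccl6 (8.74), Ccl9 (8.60), Ppbp (5.45), Il6 (6.76) and Ptgs2 (4.50). Lysosomal genes were Grn (8.26), Ctsd (2.89), Psap (2.63), Atp6ap1 (3.40) and Atp6v1a (2.52). Gpnmb was the one macrophage gene with a value below 0.

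Respiratory and other mitochondrial genes were Ndufb6 (7.04), Ndufa1 (4.89), Ndufs8 (4.98), Cox5a (6.94), Atp5c1 (5.33) and Mrpl39 (7.47). Proteasome, ribosome and translation genes were Psma2 (2.71), Psmd14 (4.43), Rpl4 (2.97), Eif4h (7.20), Eef1d (4.88) and Eif4ebp1 (4.12). Protein folding genes were Calr (5.01), Canx (3.06), Hsp90b1 (3.08), Cct3 (6.79) and Cct5 (4.41). Genes of actin and of vesicles were Capza2 (5.67), Arpc5 (4.50), Tmsb4x (2.53), Efhd2 (8.39) and Vamp3 (7.61).

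RNA-processing genes were Snrpa1 (5.32), Hnrnpr (4.72), Pqbp1 (3.98), Celf2 (3.51), Cnot7 (2.64) and Wdr61 (6.97). Cell cycle genes were Mki67 (5.69), Rpa1 (3.89) and Bub3 (3.52). Adhesion, matrix and signalling genes were Vcam1 (3.81), Fn1 (6.10), Cd44 (3.35), Timp2 (4.50), Id2 (5.60), Smad7 (1.84) and Ier5 (4.15). Values below 0, for a deeper fall in WT cells, were those of Mymx (-0.90), Slc5a2 (-1.38) and Tnp1 (-1.87).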

How the results depend on the processing

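Of the 146 genes named, 117 were called in either direction. The called genes kept their direction under each alternative, except Foxo3 after quantile normalization (-0.20). S100a8, which was not called, went to -3.31 without WT 12 h replicates 2 and 3. The most calls among the named genes were lost with only the 6 arrays compared in the fit (38 lost) and with the hybridization controls as a covariate (32 lost), and 23 were lost without WT 12 h replicates 2 and 3. The cause was not tested. The 2591 probe sets called higher became 831 with only the arrays compared in the fit and 1301 with the hybridization controls as a covariate, and ranged from 2164 to 2744 with single arrays left out. The 2986 called lower became 1189 with all 18 arrays fitted, 209 with only the arrays compared, 889 after the shift to a common 75th percentile, 211 among the probe sets whose level averaged 4 or more and 250 with the covariate, and ranged from 1335 to 4645 with single arrays left out. The 3386 probe sets at the study's threshold became 1805 with only the arrays compared and 2242 with the covariate. The 1006 differences between genotypes became 605 with all 18 arrays and 2602 without WT 12 h replicates 2 and 3, and ranged from 792 to 2183 with single arrays left out. Rises were 46.46% of calls, 93.48% among the probe sets whose level averaged 4 or more, and between 36.12% and 62.45% with WT arrays left out. The shift to the 75th percentile moved the median of all gene symbols from -0.06 to 0.06.

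The labels give the same replicate numbers at both times, but nothing says that a number marks a shared animal or day, and deviations of same-numbered arrays correlated at 0.02, 0.00 and -0.01. With the replicate block 2485 probe sets were called higher and 2511 lower, 825 differences between genotypes were called, and 2 of the named genes lost their call. GCRMA values of 2 to 3 are near background, where a difference between arrays has little meaning.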
